A study of Homo sapiens with 6 samples.

Results

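Ephrins, semaphorins and their receptors are the guidance molecules through which neighbouring cells attract, repel or sort from each other. The 52 genes described here are the EPH receptors (9 EPHA and 5 EPHB), the ephrins (5 ephrin-A and 3 ephrin-B), 19 semaphorins, 9 plexins and both neuropilins. They were taken by gene symbol as members of these families, out of 37803 symbols listed once in each deposited table. The rule uses no measured value, but the members were chosen with earlier results of these data known. Of the 52 genes, 44 had a mean of at least 1 FPKM (fragments scaled to transcript length and library size) over the 6 libraries and were tested among 13909 genes. The other 8 fell below that level.

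The cells were H1, a human embryonic stem cell line, sampled at day 2 of hematopoietic differentiation. All 6 libraries came from cells given BMP4 and activin A, which the labels put at 50 and 40 ng/ml. The study's methods give these doses the other way round. Wild-type cells form 1 group (WT, n = 2). The others carry a CRISPR/Cas9 deletion of SNAI1 and are named SNAI1_KO_1 (n = 2) and SNAI1_KO_2 (n = 2), after the leading number in their titles. The knockouts carry frameshifts. Whether each number stands for 1 clonal line is not stated. Nothing in the labels says that the libraries of a group came from separate cultures, so the p-values below measure the spread between these libraries, which may be technical.

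EPH receptors are receptor tyrosine kinases that bind ephrins on a neighbouring cell. The ephrin-A ligands are tethered by a lipid anchor and the ephrin-B ligands span the membrane, so that both receptor and ligand can signal into their own cell. Semaphorins, secreted or membrane-bound, act through plexins, and class 3 semaphorins mostly need a neuropilin, which is also a co-receptor for VEGF. In the embryo these systems separate tissues, steer mesoderm cells and shape vessels, where EFNB2 and EPHB4 mark arterial and venous endothelium. SNAI1 is a zinc-finger repressor of epithelial genes that recognises E-boxes with the letters CAGGTG.

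Values are given in the order of the tables, first and then second. SNAI1 mRNA itself was 37.1 and 36.4 FPKM in WT, 51.6 and 47.8 in SNAI1_KO_1 and 68.6 and 55.0 in SNAI1_KO_2 by label. It was higher in the libraries labelled knockout, by 0.58 on the log2 scale (adjusted p = 0.00461 by limma with Benjamini-Hochberg adjustment), and without the table as a block the adjusted p was 0.0761, and 0.0522 with the first-table WT library left out. A frameshift can leave the transcript in place, so this mRNA is no check of the genotypes, which are taken as labelled. FPKM summed to between 603399 and 633851 per library, and between 42 and 44 of the 52 guidance genes reached 1 FPKM in each. Estimated from low FPKM values, the depth of the knockout libraries lay between 0.876 and 1.11 times that of WT in their table.

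Most listed markers of early mesoderm and of endoderm were expressed in all 6 libraries. The exceptions were MSGN1 and FOXA1, at 0 and 0.15 FPKM in the first-table WT library. MIXL1, a gene of the primitive streak and nascent mesoderm, lay between 388 and 462 FPKM in all 6 libraries, and PTPRC, the pan-leukocyte marker CD45, was listed at 0 in all of them. Of 8 endothelial and blood markers, 6 fell below the filter and 0 of the other 2, RUNX1 and TEK, were called. The sum of the 8, mostly RUNX1 and TEK, lay between 6.85 and 7.99 FPKM in WT and between 7.14 and 9.36 in the knockout groups. Below the filter, CD34 had 1.2 and 1.1 FPKM in WT and 0.04 to 0.20 in the knockout libraries. SPN lay above WT at low levels, and PECAM1, CDH5 and GATA1 overlapped it. Marker lists of other states moved with the groups (of all genes tested, 15.8% were called higher and 15.4% lower). All 8 epithelial markers were higher in the knockout groups, with a sum of 819 to 912 FPKM in WT and 2541 to 2835 in the knockout libraries. Of 11 mesoderm markers, 7 were lower and 2 higher, with a sum of 1644 to 1712 FPKM in WT and 1114 to 1202 in the knockout libraries. The 2 higher were T and MSGN1, with T at 18 and 39 FPKM in WT and 130 to 251 in the knockout libraries. HAND1, among the lower, had 242 and 201 FPKM in WT and 47 to 66 in the knockout libraries. Of 8 pluripotency markers 3 were higher and 1 lower, and of 5 tested amnion and trophoblast markers 3 were higher and 1 lower. Among amnion and trophoblast markers below the filter, ISL1 lay below WT and VTCN1 overlapped it. Of 6 endoderm markers 2 were higher and 3 lower. Their sum was 3133 to 3508 FPKM in WT and 1435 to 2045 in the knockout libraries, and most of it was CER1. CER1, among the lower, had 3262 and 2550 FPKM in WT and 977 to 1797 in the knockout libraries. SOX17, among the higher, had 64 and 251 FPKM in WT and 120 to 338 in the knockout libraries. The 1 neural marker tested, NES, was higher, and the other 4 were below the filter. Of these, PAX6 had 1.3 and 2.4 FPKM in WT and 0.02 to 0.18 in the knockout libraries. LHX2 also lay below WT, and SOX1 and SIX3 overlapped it. In bulk RNA, fewer cells of a type and less RNA per cell cannot be told apart, and the part of these shifts in the results below was not tested.

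To ask which guidance genes differed between genotypes, both knockout groups were set against WT on log2(FPKM + 1), with the 2 tables as blocks. Of the 44 genes tested, 27 passed an adjusted p of 0.05, which is 61.4% of them, against 31.3% of all genes tested. In the knockout groups 10 were higher (15.8% of all genes) and 17 lower (15.4% of all genes). All 27 moved the same way in each of the 4 comparisons of a knockout library with the WT library of its own table. The calls rest on these same differences, so this is no separate support, and 8 of the 17 genes not called did so too. The median difference over the 44 genes was -0.18, and -0.05 over all genes tested. A log2 difference of 1 or more was seen for 8 of the called genes, against 7.18% of all genes tested. These were SEMA6D, EPHB2, EFNA2, PLXNA2, SEMA6C and EFNB1, which were lower, and SEMA3B and SEMA6A, which were higher.

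Each knockout group gave a similar count when taken alone. SNAI1_KO_1 against WT called 26 of the 44 genes (23.9% of all genes tested), and SNAI1_KO_2 against WT called 25 (25.5% of all genes tested). Both counts rest on the same WT libraries. All of these genes were among the 27, of which SEMA4B failed in SNAI1_KO_1 (adjusted p = 0.117) and EFNA3 and SEMA3A failed in SNAI1_KO_2 (adjusted p = 0.0772 and 0.0676). Between the knockout groups, limma called 0 of the 44 genes (0% of all genes tested), and 521 of all genes had an unadjusted p under 0.05. These included 2 of the 44 guidance genes, SEMA6D and EPHA4, with log2 differences of -0.28 ± 0.094 and -0.28 ± 0.098 (SE, SNAI1_KO_2 minus SNAI1_KO_1). Genes that do not differ give such a p at a rate of 0.05, so these 2 are not read as a difference. The median SE of this comparison over the 44 genes was 0.12, so small differences between the knockout groups were not detectable.

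**Figure D1:**
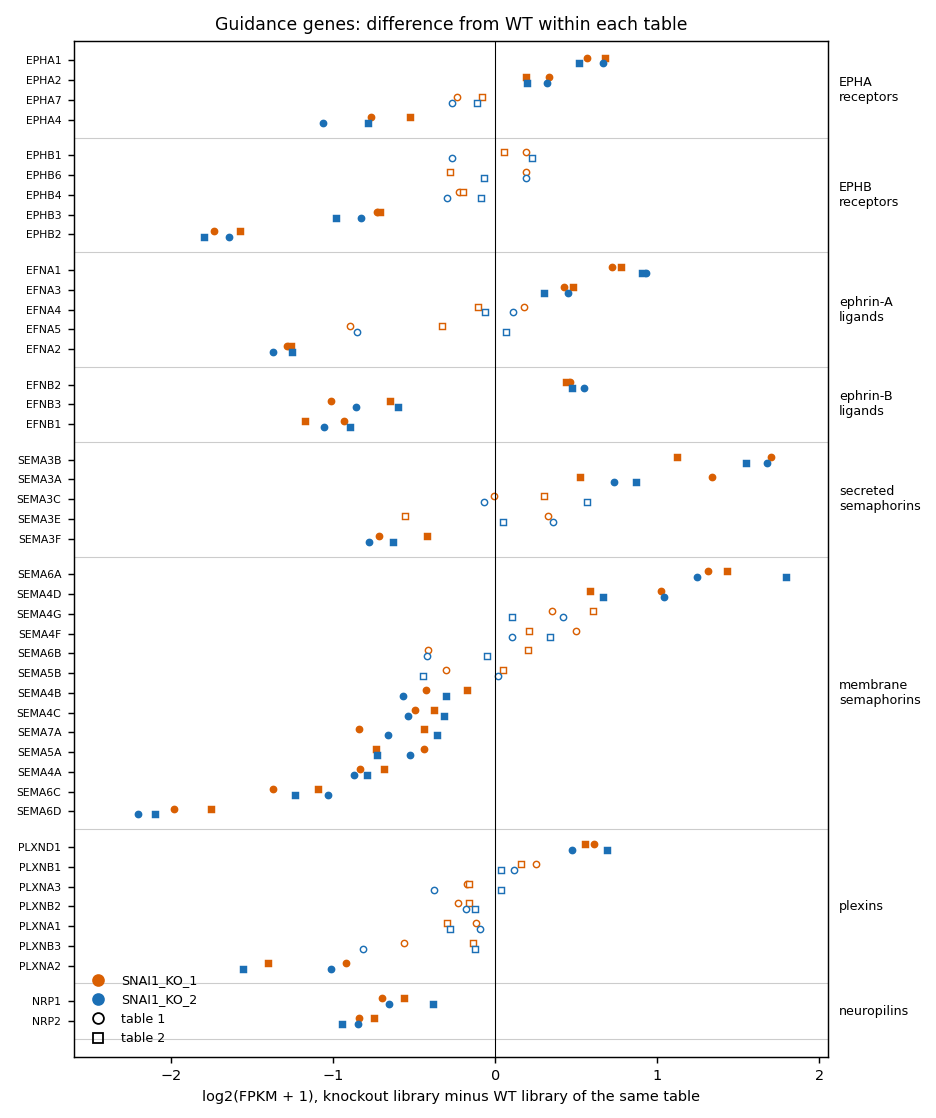
Difference in log2(FPKM + 1) between each knockout library and the WT library of the same table, for the 44 guidance genes tested, grouped by class. Colour gives the knockout group and shape the table, and filled symbols are genes with an adjusted p under 0.05 for both knockout groups against WT. All 4 symbols lie on the same side of 0 for each of the 27 filled genes, which were called from these differences. The same is seen for 8 of the 17 open genes.

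Promoter windows of genes that changed are shown because SNAI1 recognises the E-box letters and because EPHA1 and EFNB2 were higher while EPHB2 and SEMA3F were lower with the same letters in a window. They are RefSeq sequences on GRCh38.p14, from 250 bases before to 50 bases after a listed start of the gene, read 5′ to 3′ on the gene's strand, with CAGGTG or CACCTG (the same letters on the other strand) in capitals. EPHA1 lies at chr7:143408807-143409106 on the minus strand, with the capitals starting 80 bases upstream of the start. EFNB2 lies at chr13:106535613-106535912 on the minus strand, with the capitals 167 bases upstream. The EPHB2 window shown lies at chr1:22710588-22710887 on the plus strand, with the capitals 62 bases upstream. The gene's other window, chr1:22710589-22710888, is almost the same stretch and holds the same CAGGTG. The SEMA3F window shown lies at chr3:50154808-50155107 on the plus strand, with the capitals 137 bases upstream, and it is the only 1 of the gene's 3 windows with the letters.
EPHA1: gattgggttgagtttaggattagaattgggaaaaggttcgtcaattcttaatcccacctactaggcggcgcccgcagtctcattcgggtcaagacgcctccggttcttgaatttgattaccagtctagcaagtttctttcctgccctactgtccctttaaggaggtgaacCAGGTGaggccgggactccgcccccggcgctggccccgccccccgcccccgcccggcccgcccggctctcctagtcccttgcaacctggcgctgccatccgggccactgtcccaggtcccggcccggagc
EFNB2: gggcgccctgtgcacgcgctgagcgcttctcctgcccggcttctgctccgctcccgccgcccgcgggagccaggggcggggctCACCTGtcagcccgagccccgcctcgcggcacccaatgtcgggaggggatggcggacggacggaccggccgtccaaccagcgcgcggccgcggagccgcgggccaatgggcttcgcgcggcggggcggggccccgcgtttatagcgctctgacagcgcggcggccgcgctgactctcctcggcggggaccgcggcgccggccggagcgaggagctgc
EPHB2: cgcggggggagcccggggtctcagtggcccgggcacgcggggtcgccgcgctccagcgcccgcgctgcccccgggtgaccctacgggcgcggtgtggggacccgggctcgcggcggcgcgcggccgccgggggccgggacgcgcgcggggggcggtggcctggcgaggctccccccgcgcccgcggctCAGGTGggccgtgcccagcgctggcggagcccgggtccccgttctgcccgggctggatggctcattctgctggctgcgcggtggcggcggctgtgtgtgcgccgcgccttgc
SEMA3F: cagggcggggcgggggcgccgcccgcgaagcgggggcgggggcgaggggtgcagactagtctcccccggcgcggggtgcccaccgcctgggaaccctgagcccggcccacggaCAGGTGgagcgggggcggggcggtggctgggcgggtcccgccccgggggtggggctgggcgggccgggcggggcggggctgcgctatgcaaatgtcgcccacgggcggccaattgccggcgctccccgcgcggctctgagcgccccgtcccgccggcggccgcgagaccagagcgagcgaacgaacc

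A window was found for 46 of the 52 genes, and EPHA10, EFNB3, SEMA3A, SEMA6A, SEMA6B and NRP1 had none in the table used. The letters occurred in any window of 11 of the 46 genes, against 24.07% of all genes with a window. They occurred in 3 of 8 genes called higher (EPHA1, EFNB2 and SEMA3B), in 3 of 15 called lower (EPHB2, SEMA3F and SEMA4A) and in 4 of 16 tested genes that were not called. Genes differ in their number of windows, and more windows give more room for a match. SEMA3B had the letters in 1 of 5 windows and SEMA4A in 2 of 4. A match describes the letters of the reference and not a site bound in these cells.

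Among EPHA receptors, EPHA1 rose and EPHA4 fell in the knockout groups. EPHA1, found in many epithelia, had 17.6 and 22.5 FPKM in WT, 26.5 and 36.6 in SNAI1_KO_1 and 28.5 and 32.7 in SNAI1_KO_2. The knockout libraries lay above both WT libraries, with a log2 difference of 0.61 ± 0.076 (SE, adjusted p = 0.00416 by limma). EPHA4, which binds ephrins of both classes and keeps cell groups apart in the segmenting embryo, had 29.9 and 24.8 FPKM in WT, 17.2 and 16.9 in SNAI1_KO_1 and 13.8 and 13.9 in SNAI1_KO_2. All 4 knockout libraries lay below WT, with a log2 difference of -0.79 ± 0.085 (adjusted p = 0.00263).

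EPHA2 was the most abundant EPHA receptor in every group. Its FPKM was 68.3 and 116 in WT, 86.0 and 132 in SNAI1_KO_1 and 85.3 and 133 in SNAI1_KO_2. The tables differed more than the groups, which overlapped, and the difference within tables was 0.26 ± 0.052 (adjusted p = 0.0182). In WT, EPHA4 had the second-highest mean of the class, and in both knockout groups EPHA1 had it. EPHA7 was tested and not called (log2 difference -0.18, adjusted p = 0.402), and EPHA3, EPHA5, EPHA6, EPHA8 and EPHA10 were below the filter. Without the table term the adjusted p was 0.146 for EPHA1 and 0.764 for EPHA2, and with the first-table WT library left out it was 0.0506 for EPHA1. EPHA2 also failed when any of 5 libraries was left out, with adjusted p between 0.0506 and 0.124.

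Of 5 EPHB receptors, 2 fell and 3 were not called (40% called, against 31.3% of all genes tested). EPHB2, the receptor for ephrin-B ligands known from intestinal cell sorting, had 25.4 and 30.3 FPKM in the WT libraries, 6.92 and 9.50 in SNAI1_KO_1 and 7.44 and 7.97 in SNAI1_KO_2. The knockout libraries were all far below WT, with a log2 difference of -1.69 ± 0.094 (adjusted p = 0.000387 by limma). Its share of the summed FPKM of the 5 EPHB receptors was 21.3% and 16.6% in WT and between 6.50% and 9.77% in the knockout libraries.

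EPHB3, which shares ligands with EPHB2, had 32.6 and 66.1 FPKM in WT, 19.3 and 40.0 in SNAI1_KO_1 and 17.9 and 32.9 in SNAI1_KO_2. Every knockout library was below the WT library of its own table, while the second table's knockout libraries overlapped the first table's WT library. Its log2 difference was -0.81 ± 0.066 (adjusted p = 0.0011 with the table term and 0.394 without it). EPHB4, the venous receptor of EFNB2, was the most abundant of the class, at 55.9 and 78.3 FPKM in WT, 47.7 and 68.0 in SNAI1_KO_1 and 45.2 and 73.7 in SNAI1_KO_2. The groups overlapped and EPHB4 was not called (log2 difference -0.20 ± 0.065, adjusted p = 0.0675). EPHB1 and EPHB6, a member without kinase activity, were not called either, with log2 differences of 0.049 and 0.0072.

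The ephrin-A ligands moved in both directions. EFNA1, a ligand of EPHA2, had 3.85 and 3.49 FPKM in WT, 6.99 and 6.70 in SNAI1_KO_1 and 8.24 and 7.40 in SNAI1_KO_2. No knockout library was as low as WT (log2 difference 0.83 ± 0.091, adjusted p = 0.00271 by limma). EFNA3 was also higher, by 0.41 ± 0.10 (adjusted p = 0.0355), but it failed without the table term (adjusted p = 0.409) and when any 1 of the 6 libraries was left out (0.0762 to 0.174).

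EFNA2 had 14.4 and 52.9 FPKM in WT, 5.34 and 21.5 in SNAI1_KO_1 and 4.95 and 21.6 in SNAI1_KO_2. The tables gave very different levels for this gene, but in each the knockout libraries lay well below WT. The log2 difference was -1.29 ± 0.072 (adjusted p = 0.000394 with the table term, 0.49 without it). EFNA4 had 11.0 and 13.2 FPKM in WT, 12.6 and 12.2 in SNAI1_KO_1 and 12.0 and 12.6 in SNAI1_KO_2. These values overlapped throughout (log2 difference 0.028 ± 0.09, adjusted p = 0.835). EFNA5 was not called, with a log2 difference of -0.50 ± 0.20 (adjusted p = 0.113).

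All 3 ephrin-B ligands changed, EFNB1 and EFNB3 to lower and EFNB2 to higher levels (31.3% of all genes tested were called). EFNB1, the X-linked ligand that sets tissue boundaries in the embryo, had 6.55 and 8.54 FPKM in WT, 2.95 and 3.22 in SNAI1_KO_1 and 2.63 and 4.12 in SNAI1_KO_2. EFNB3, best known as a midline cue in the nervous system, had 7.95 and 8.28 FPKM in WT, 3.43 and 4.91 in SNAI1_KO_1 and 3.93 and 5.12 in SNAI1_KO_2. For both genes all knockout libraries lay below WT, with log2 differences of -1.02 ± 0.12 and -0.78 ± 0.12 (adjusted p = 0.00376 and 0.00711 by limma).

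EFNB2, the arterial ligand of EPHB4, had 6.59 and 6.76 FPKM in WT, 9.43 and 9.51 in SNAI1_KO_1 and 10.1 and 9.76 in SNAI1_KO_2. Here all 4 knockout libraries lay above WT, by 0.48 ± 0.081 (adjusted p = 0.0106). EFNB2 thus went from 31.2% and 28.7% of the summed ephrin-B FPKM in WT to between 51.4% and 60.6% in the knockout libraries, while the sum itself was 22.3 ± 1.76 (SD, n = 2) in WT, 16.7 ± 1.29 in SNAI1_KO_1 and 17.8 ± 1.66 in SNAI1_KO_2. Without the table term the adjusted p was 0.0934 for EFNB2 and 0.0719 for EFNB3. EFNB2 failed when any library of the first table or the second-table WT library was left out (adjusted p 0.0501 to 0.0852), EFNB3 without the first-table WT library (0.0697) and EFNB1 without the second-table WT library (0.0542).

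**Figure D2:**
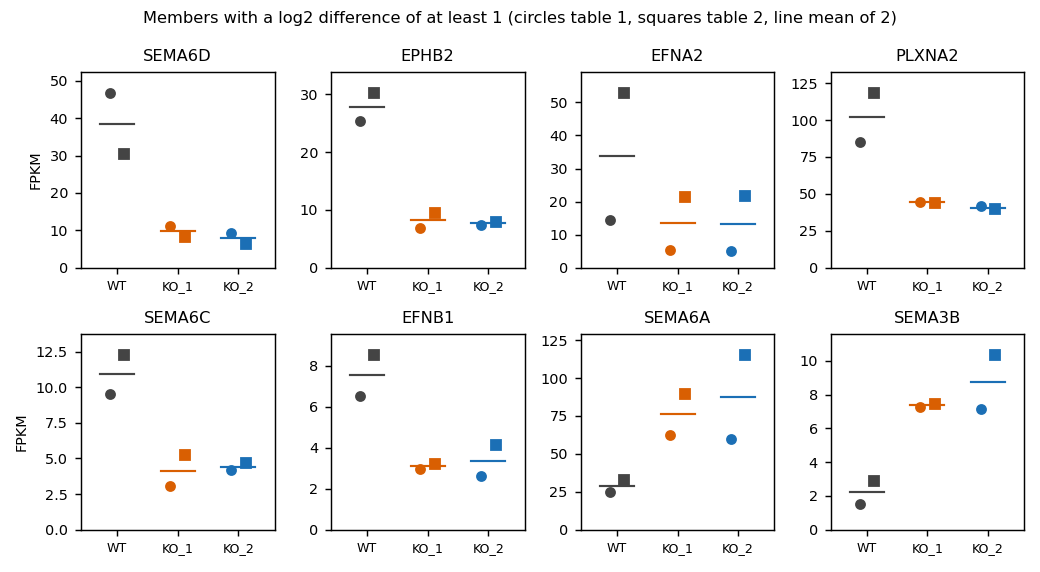
FPKM of the 8 called guidance genes that differed by 1 or more on the log2 scale, from the largest fall (SEMA6D) to the largest rise (SEMA3B), with each axis starting at 0. Circles are libraries of the first table, squares of the second and lines the mean of the 2 libraries of a group. The knockout libraries stand apart from WT in every panel but that of EFNA2, where the tables give different levels.

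Among secreted semaphorins, SEMA3B and SEMA3A rose and SEMA3F fell. SEMA3B, a ligand of neuropilins known as a tumour suppressor, had 1.54 and 2.89 FPKM in WT, 7.27 and 7.46 in SNAI1_KO_1 and 7.13 and 10.3 in SNAI1_KO_2. The knockout libraries were all above WT, with a log2 difference of 1.51 ± 0.15 (adjusted p = 0.00189 by limma). SEMA3A, the classical repellent that signals through NRP1 and A-type plexins, had 3.37 and 4.16 FPKM in WT, 10.1 and 6.40 in SNAI1_KO_1 and 6.26 and 8.43 in SNAI1_KO_2. The groups did not overlap, but the spread was wide, and the difference was 0.87 ± 0.21 (adjusted p = 0.0327).

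SEMA3F, which signals through NRP2, had 27.6 and 32.1 FPKM in WT, 16.4 and 23.7 in SNAI1_KO_1 and 15.7 and 20.4 in SNAI1_KO_2. Each knockout library was below WT (log2 difference -0.64 ± 0.082, adjusted p = 0.00461). It remained the most abundant secreted semaphorin, with 63.7% and 68.1% of the class sum in WT and 35.6% to 51.9% in the knockout libraries. The class sum overlapped between groups, at 45.3 ± 2.74 FPKM in WT (SD, n = 2), 45.8 ± 0.163 in SNAI1_KO_1 and 46.0 ± 5.67 in SNAI1_KO_2. SEMA3C and SEMA3E were not called (log2 differences 0.20 and 0.042), and SEMA3D was below the filter. Without the table term the adjusted p was 0.0915 for SEMA3A and 0.151 for SEMA3F, and SEMA3A failed when any of 4 libraries was left out (0.053 to 0.225).

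The class 6 semaphorins, transmembrane ligands of A-type plexins, moved in opposite directions. SEMA6D, known from heart and neural development, had 46.8 and 30.4 FPKM in WT, 11.1 and 8.29 in SNAI1_KO_1 and 9.37 and 6.32 in SNAI1_KO_2. All 4 knockout libraries were far below WT, with the largest difference of the 44 genes, -2.01 ± 0.081 on the log2 scale (adjusted p = 0.000196 by limma). SEMA6A, a ligand of PLXNA2 and PLXNA4, had 24.6 and 32.6 FPKM in WT, 62.6 and 89.5 in SNAI1_KO_1 and 59.7 and 115 in SNAI1_KO_2. Both knockout groups were above WT in every library, by 1.44 ± 0.12 (adjusted p = 0.00112, and 0.0524 without the table term). SEMA6A made up 34.5% and 51.8% of the FPKM of these 2 genes in WT and 85.0% to 94.8% in the knockout libraries.

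By mean FPKM over 19 semaphorins, SEMA6D ranked 2 in WT, 7 in SNAI1_KO_1 and 9 in SNAI1_KO_2, while SEMA6A ranked 5 in WT and 1 in both knockout groups. Exons of SEMA6A overlap those of the antisense gene SEMA6A-AS1, which had 3.12 and 1.21 FPKM in WT, 4.58 and 3.65 in SNAI1_KO_1 and 6.30 and 5.83 in SNAI1_KO_2. Whether the counting used strand is not stated, so reads of the shared exons cannot be assigned with certainty. The same holds for the called genes EPHA4, EPHB2, EFNB2, SEMA5A, NRP1 and NRP2, whose exons also overlap a gene on the opposite strand. These overlapping genes were at most 1.5 FPKM in any library, and that at EFNB2 had no value. SEMA6C had 9.56 and 12.3 FPKM in WT, 3.08 and 5.23 in SNAI1_KO_1 and 4.16 and 4.65 in SNAI1_KO_2. It was lower in all 4 knockout libraries (log2 difference -1.18 ± 0.13, adjusted p = 0.00259). SEMA6B, whose level depended on the table, had 11.4 and 49.6 FPKM in WT, 8.31 and 57.3 in SNAI1_KO_1 and 8.24 and 47.9 in SNAI1_KO_2 and was not called.

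**Figure D3:**
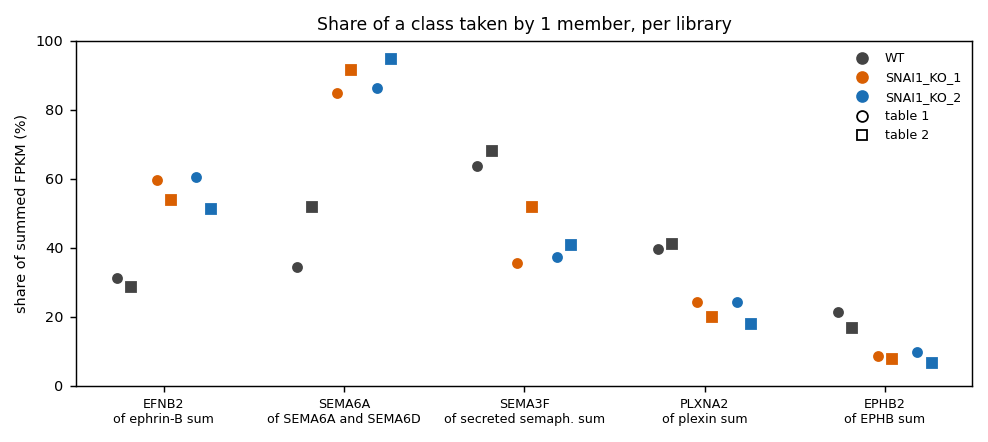
Share of summed FPKM (%) taken by EFNB2 among ephrin-B ligands, SEMA6A of SEMA6A plus SEMA6D, SEMA3F among secreted semaphorins, PLXNA2 among plexins and EPHB2 among EPHB receptors, with 1 symbol per library. Colour gives the group and shape the table. The WT symbols lie below the knockout symbols for EFNB2 and SEMA6A and above them for SEMA3F, PLXNA2 and EPHB2, and these 5 shares were picked after the values had been seen.

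Of the other membrane semaphorins, 5 fell and 1 rose (all genes tested: 15.4% lower and 15.8% higher). SEMA4D, the ligand of PLXNB1, had 3.77 and 4.66 FPKM in WT, 8.71 and 7.50 in SNAI1_KO_1 and 8.81 and 7.99 in SNAI1_KO_2. All knockout libraries were above WT (log2 difference 0.83 ± 0.12, adjusted p = 0.00723 by limma). SEMA4C, a ligand of PLXNB2, had the highest mean of the semaphorins in WT, at 50.0 and 57.2 FPKM, and 35.2 and 43.8 in SNAI1_KO_1 and 34.1 and 45.6 in SNAI1_KO_2. It was below WT in all 4 knockout libraries (log2 difference -0.43 ± 0.066, adjusted p = 0.00765).

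SEMA4A, known for its part in immune cells and the retina, had 5.19 and 7.56 FPKM in WT, 2.48 and 4.32 in SNAI1_KO_1 and 2.38 and 3.93 in SNAI1_KO_2. SEMA5A, a semaphorin with thrombospondin repeats, had 17.9 and 15.4 FPKM in WT, 12.9 and 8.83 in SNAI1_KO_1 and 12.1 and 8.86 in SNAI1_KO_2. Neither gene's knockout libraries overlapped WT, and the log2 differences were -0.80 ± 0.10 and -0.61 ± 0.091 (adjusted p = 0.00474 and 0.00729). SEMA7A, the lipid-anchored semaphorin that binds PLXNC1 and integrins, had 8.14 and 11.0 FPKM in WT, 4.11 and 7.82 in SNAI1_KO_1 and 4.77 and 8.33 in SNAI1_KO_2. It overlapped WT across tables and was lower within each (log2 difference -0.58 ± 0.12, adjusted p = 0.0174). SEMA4B was lower by the model with -0.37 ± 0.098 (adjusted p = 0.041), and SEMA4F, SEMA4G and SEMA5B were not called (log2 differences 0.29, 0.37 and -0.17).

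Several of these calls rested on the table term or on a single library. Without the table term the adjusted p was 0.181 for SEMA4A, 0.652 for SEMA4B, 0.26 for SEMA4C, 0.184 for SEMA5A and 0.401 for SEMA7A. With the first-table WT library left out it was 0.0557 for SEMA4A, 0.0704 for SEMA4C, 0.054 for SEMA4D and 0.125 for SEMA7A, and with the second-table WT library left out it was 0.0694 for SEMA5A. SEMA4B failed when any 1 of the 6 libraries was left out (0.0807 to 0.248), and SEMA7A also without either first-table knockout library or the second-table SNAI1_KO_2 library (0.0601 to 0.0691).

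Among plexins, the semaphorin receptors, PLXNA2 fell and PLXND1 rose. These 2 of 7 tested plexins are 28.6%, near the 31.3% of all genes tested. PLXNA2, the receptor of SEMA6A, had the highest plexin level in WT, at 85.2 and 118 FPKM, and 44.4 and 44.1 in SNAI1_KO_1 and 41.6 and 39.5 in SNAI1_KO_2. All 4 knockout libraries were below WT, with a log2 difference of -1.23 ± 0.12 (adjusted p = 0.002 by limma). Its share of the plexin sum was 39.7% and 41.0% in WT and 17.8% to 24.3% in the knockout libraries. PLXND1, the plexin of vascular endothelium, had 21.7 and 31.4 FPKM in WT, 33.5 and 46.6 in SNAI1_KO_1 and 30.4 and 51.4 in SNAI1_KO_2. It was higher within each table and overlapped WT across tables (log2 difference 0.58 ± 0.077, adjusted p = 0.00497).

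PLXNB1, the receptor of SEMA4D, had 33.1 and 41.2 FPKM in WT, 39.6 and 46.0 in SNAI1_KO_1 and 36.0 and 42.2 in SNAI1_KO_2. The groups overlapped, and PLXNB1 was not called (log2 difference 0.14 ± 0.056, adjusted p = 0.118). PLXNA1, PLXNA3, PLXNB2 and PLXNB3 were not called, with log2 differences of -0.20, -0.17, -0.17 and -0.41, and PLXNA4 and PLXNC1 were below the filter. For PLXND1 the adjusted p was 0.342 without the table term and 0.0619 with the second-table WT library left out.

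Both neuropilins fell (15.4% of all genes tested were called lower), a count that rests on only 2 genes. NRP2, the co-receptor of SEMA3F and VEGFC, had 63.6 and 69.1 FPKM in WT, 35.0 and 40.8 in SNAI1_KO_1 and 35.0 and 35.4 in SNAI1_KO_2. WT stood above every knockout library (log2 difference -0.85 ± 0.063, adjusted p = 0.000863 by limma). NRP1, the co-receptor of SEMA3A and VEGFA, had 24.2 and 14.6 FPKM in WT, 14.5 and 9.57 in SNAI1_KO_1 and 15.0 and 11.0 in SNAI1_KO_2. The first table's WT library was the highest of the 6, and the second table's overlapped the first table's knockout libraries. The log2 difference of NRP1 was -0.58 ± 0.086 (adjusted p = 0.00728, 0.337 without the table term and 0.0751 with the first-table WT library left out). The summed neuropilin level was 85.8 ± 2.90 FPKM in WT (SD, n = 2), 49.9 ± 0.544 in SNAI1_KO_1 and 48.2 ± 2.54 in SNAI1_KO_2.

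Groups that did not overlap in FPKM across the tables were counted as well. All 4 knockout libraries were above both WT libraries for 8 of the 44 genes (16.9% of all genes tested) and below them for 14 (17.1% of all genes tested). Of the 27 called genes, 19 did not overlap WT and 8 did. The 8 that did, EPHA2, EPHB3, EFNA2, EFNA3, SEMA4B, SEMA7A, PLXND1 and NRP1, all lost their call without the table term. In total 17 of the 27 lost it, so genes that did not overlap were among them. The tables were normalized separately, and WT FPKM differed at least 2-fold between them for 4 of the 44 genes. With no filter on low genes, EPHA2, EFNA3, EFNB3, SEMA3A, SEMA4B, SEMA4D and SEMA7A were no longer called, with adjusted p between 0.0518 and 0.157.

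Genes that act with these receptors were examined by lists chosen together with the families. Of 23 tested partners of EPH signalling, 6 were higher and 2 lower, or 34.8% called, a share near the 31.3% of all genes tested. The largest change was in SRC, a kinase downstream of EPH receptors and ephrin-B ligands, with 73.7 and 78.5 FPKM in WT, 31.8 and 34.8 in SNAI1_KO_1 and 26.0 and 32.0 in SNAI1_KO_2. All knockout libraries were below WT (log2 difference -1.27 ± 0.066, adjusted p = 0.000341 by limma). Of 28 partners of plexin signalling, 7 were higher and 5 lower, or 42.9% called, against 31.3% of all genes tested. MICAL2, a flavin enzyme that oxidises actin, had 3.92 and 4.65 FPKM in WT, 11.6 and 11.9 in SNAI1_KO_1 and 12.5 and 11.9 in SNAI1_KO_2 and rose by 1.30 ± 0.094 (adjusted p = 0.000804). The collapsin response mediators DPYSL5 and DPYSL4 differed in opposite directions, by 1.06 ± 0.18 and -1.11 ± 0.099 (adjusted p = 0.0105 and 0.00142). Both failed without the table term (adjusted p = 0.0525 and 0.142), and DPYSL5 also with no filter (0.0779) and with the first-table or second-table WT library left out (0.073 and 0.0974).

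Of 6 tested VEGF ligands and receptors that use neuropilins, 4 were lower and 1 higher (all genes tested: 15.4% lower and 15.8% higher). PGF, the placental growth factor, fell from 12.2 and 12.0 FPKM in WT to 3.38 and 4.71 in SNAI1_KO_1 and 3.46 and 4.06 in SNAI1_KO_2, a log2 difference of -1.43 ± 0.12 (adjusted p = 0.00116 by limma). Its receptor FLT1 and the main VEGF receptor KDR were lower, with log2 differences of -0.995 and -0.56, as was VEGFB with -0.62, and VEGFA was higher by 0.87. Without the table term KDR, VEGFB and VEGFA failed (adjusted p = 0.0651, 0.0707 and 0.325). KDR also failed with no filter or with the first-table WT library left out (0.0573 and 0.054), and VEGFB with no filter or with either WT library left out (0.0779 to 0.104). In the netrin, slit and RGM families, which guide the same kinds of cells through other receptors, 6 of 14 tested genes were higher and 4 lower (all genes tested: 15.8% higher and 15.4% lower). SLIT2, a secreted ligand of ROBO receptors, rose from 3.70 and 2.61 FPKM in WT to 14.6 and 12.8 in SNAI1_KO_1 and 15.2 and 14.7 in SNAI1_KO_2 (log2 difference 1.89 ± 0.10, adjusted p = 0.000362). NTN4, a netrin of basement membranes, and UNC5C, a netrin receptor, fell, with log2 differences of -1.36 ± 0.18 and -1.24 ± 0.13 (adjusted p = 0.00478 and 0.00254). NTN4 failed with no filter (0.0556) and with either WT library left out (0.0618 each).

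**Figure D4:**
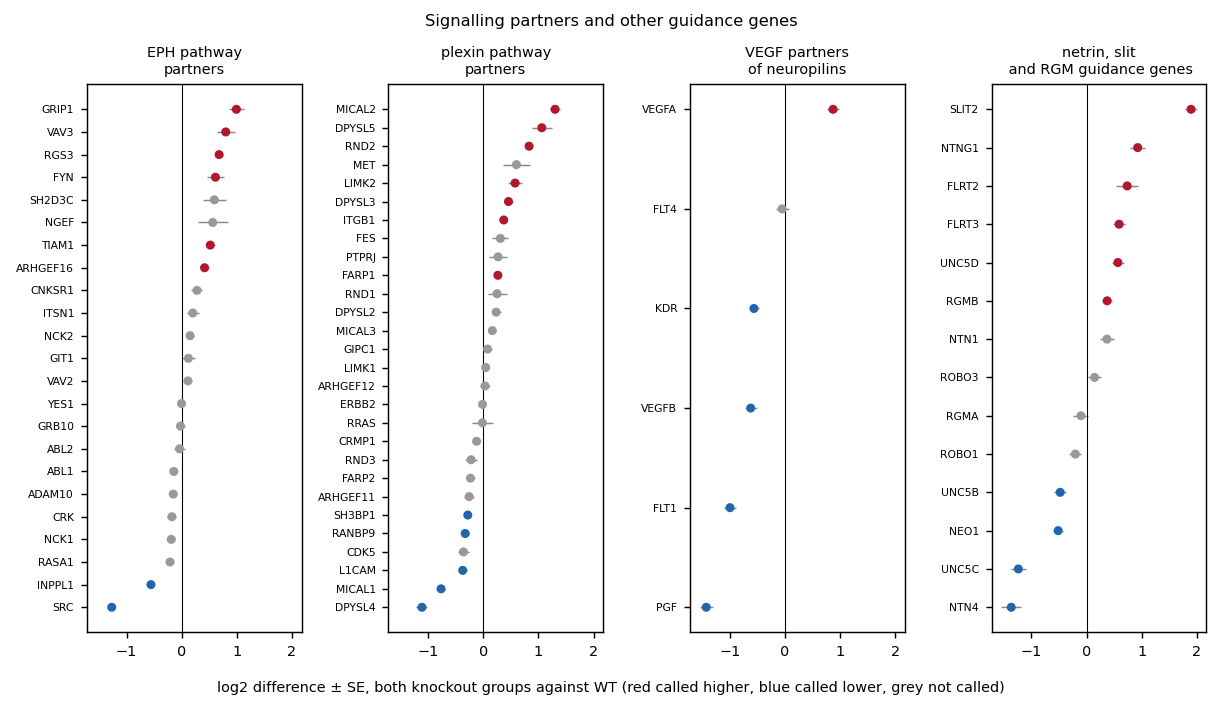
Log2 difference of both knockout groups against WT, with its standard error, for the tested EPH partners, plexin partners, VEGF partners of neuropilins, and netrin, slit and RGM genes. Red marks genes called higher, blue genes called lower and grey genes that were not called, and each list holds genes of both colours, with SLIT2 at 1.89 and PGF at -1.43 as the extremes.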

How the data were processed

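The authors deposited FPKM values per gene symbol in 2 tables (38100 and 58324 rows), and every group has 1 library in each. Only the second table names the unit. The submitters' processing notes name BWA, Bowtie, RSEM and hg19, without versions or roles. Whether counting used strand is not stated. The tables were normalized separately, so the table was a block. Libraries of 1 table deviated together (r = 0.616, 0.666 and 0.676 between tables across genes, which are not independent), so the pairing comes from the tables.

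Symbols repeated in a table (94 and 340) were left out. Genes with a mean of at least 1 FPKM were tested on log2(FPKM + 1), which understates changes of low genes, with limma 3.58.1 in R 4.3.3 (group means, table block, mean-variance trend; 2 residual and 3.34 prior degrees of freedom). Two-sided p-values received the Benjamini-Hochberg adjustment over 13909 genes and were called under 0.05. The members and lists were chosen with earlier results of these data known. Members are given per library if called and at least 0.5 apart on the log2 scale, or if 1 of the 2 most abundant of their class, and listed partners are named if called with a difference of at least 1, to which FLT1, KDR, VEGFB, VEGFA and SEMA6B were added after their values were seen. Absolute depth is unknown, so no counting interval is given. Promoter windows were taken from RefSeq (GRCh38.p14) and exon overlaps from GENCODE 29, while the files are on hg19. Proteins were not used here. Alternatives were no filter, no table block, a minimum mean of 5 FPKM, pseudocounts of 0.1 and 10, quantile normalization, median-ratio scaling, equal library means, no trend, a minimum log2 difference of 1, knockout libraries as 1 group, and leaving out each library. Columns of samples not used numbered 0.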

Additional observations from a re-analysis of the deposited data

How the results depend on the processing

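Of the 27 called guidance genes, 8 (EPHA4, EPHB2, EFNA1, SEMA3B, SEMA6C, SEMA6D, PLXNA2 and NRP2) kept their call and direction under all 16 alternatives run for single genes, and 19 lost the call under at least 1. Over the guidance genes, 609 of 694 values from alternatives stayed on their side of the threshold with the same direction, 65 lost and 4 gained a call, and 16 changed sign. The 4 gained were EPHB4 and PLXNB2, each with equal library means and with knockout libraries as 1 group. Their lowest adjusted p by limma was 0.039 and 0.0454. Without the replicate block (the table), 10, 3 and 7 guidance genes were called for both knockout groups, SNAI1_KO_1 and SNAI1_KO_2 against WT, and 1065, 576 and 698 of all genes, of which 71.9%, 75.5% and 74.6% were higher. With no filter the counts were 20, 6 and 9 guidance genes and 2139, 1008 and 1216 of all genes, and with a minimum log2 difference of 1 they were 8, 8 and 7 and 998, 950 and 1054. Leaving out each library gave 15 to 25, 9 to 21 and 11 to 23 guidance genes, and 1728 to 2840, 962 to 2379 and 1135 to 2693 of all genes. The lowest count for both groups, 15, came with the first-table WT library left out. Between the knockout groups, 0 genes were called under every alternative.

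Sign changes were confined to genes not called. EPHB1, EPHB6 and SEMA3E were at -0.0448, -0.0365 and -0.0101 under quantile normalization, and EPHB6 at -0.0206 with equal library means. With 1 library left out, EPHB1 ranged from -0.0911 to 0.19, EPHB6 from -0.177 to 0.192, EFNA4 from -0.0871 to 0.144, SEMA3C from -0.0396 to 0.432, SEMA3E from -0.255 to 0.338 and SEMA6B from -0.418 to 0.0761. The cause of these changes was not tested. With 2 libraries per group, the standard errors of the uncalled guidance genes ran from 0.0562 to 0.198, and a missed threshold does not show that values did not differ.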
